A study of Mus musculus with 4 samples.

Results

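The unconventional myosins of hair cells are described here as a set of 10 genes, namely Myo7a, Myo6, Myo15, Myo3a, Myo3b, Myo1c, Myo1h, Myo10, Myo5a and Myo7b, taken by name from the 37239 genes of the deposited tables. All 10 were found by their Ensembl identifiers, and Myo15 is the gene that newer annotation calls Myo15a. RNA came from whole cochleae of mice at postnatal day 8, in 2 libraries of wild-type Ikzf2+/+ animals and 2 libraries of their littermates homozygous for the cello allele (Ikzf2cello/cello), which are called cello below. Ikzf2 encodes helios, a zinc finger transcription factor of outer hair cells. The labels call the libraries biological duplicates but do not say whether 1 animal or several went into each. The p-values thus measure the spread between these 4 libraries. The labels also do not say that libraries of the same replicate number share a litter, and the main fit did not pair them. In whole tissue, fewer cells of a type and less RNA per cell cannot be told apart.

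Unconventional myosins are motors that walk along actin filaments while carrying or anchoring a cargo. In the hair bundle, the array of actin-filled stereocilia with which a hair cell detects sound, they bring length regulators to the stereocilia tips, hold the tip links under tension and tie the membrane to the base of the bundle. Loss of several of them causes deafness in mice and in humans. Other members of the family move organelles or build filopodia in many cell types, so their transcripts in a whole cochlea need not come from hair cells.

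The libraries held 42152616 to 49719984 counted alignments, of which 70.0% to 72.8% lay in genes, and a single read was worth 0.0201 to 0.0237 CPM (reads per library total, scaled as deposited). Ikzf2 itself measured 22.9 and 18.5 CPM in the wild-type libraries and 17.7 and 16.9 CPM in the cello libraries (limma, unadjusted p = 0.13), which does not check the labels, because cello is known as a point mutation. Hair cells, supporting cells and spiral ganglion neurons were represented in every library, with 0 of their 14, 12 and 12 markers at a count of 0. By limma on log2(CPM + 0.5), 0 of 14721 genes tested passed an adjusted p of 0.05 (0%), while 952 genes with lower and 651 with higher values in cello had an unadjusted p under 0.05 (6.47% and 4.42%). The count test edgeR called 0 genes (0%) and DESeq2 called 195 (1.32%).

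Between genes, levels were compared as CPM per kilobase of exon. Myo6 was the most abundant of the 10, at 19.8 ± 0.757 CPM per kb (SD, n = 4 libraries), and it made up 39.9% ± 0.508 of the summed level of the 10 genes in wild-type and 38.4% ± 0.192 in cello (SD, n = 2). Myo1c followed at 10.8 ± 0.538, Myo10 at 8.41 ± 0.936 and Myo5a at 6.74 ± 1.19 CPM per kb (SD, n = 4). These 4 genes, which many cell types use, stood above the myosins best known from the hair bundle. Myo7a stood at 2.005 ± 0.335, Myo15 at 0.909 ± 0.221, Myo3b at 0.799 ± 0.142, Myo1h at 0.701 ± 0.136 and Myo3a at 0.313 ± 0.111 CPM per kb (SD, n = 4). Myo7b was at the bottom with 0.0541 ± 0.0242 CPM per kb (SD, n = 4). The ranges over the 4 libraries overlapped between Myo10 and Myo5a, between Myo15 and Myo3b, and between Myo3b and Myo1h. The other neighbours in this order did not overlap. The summed level of the 10 genes was 49.3 and 51.8 CPM per kb in wild-type and 52.2 and 48.6 in cello, so the groups overlapped.

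**Figure D1:**
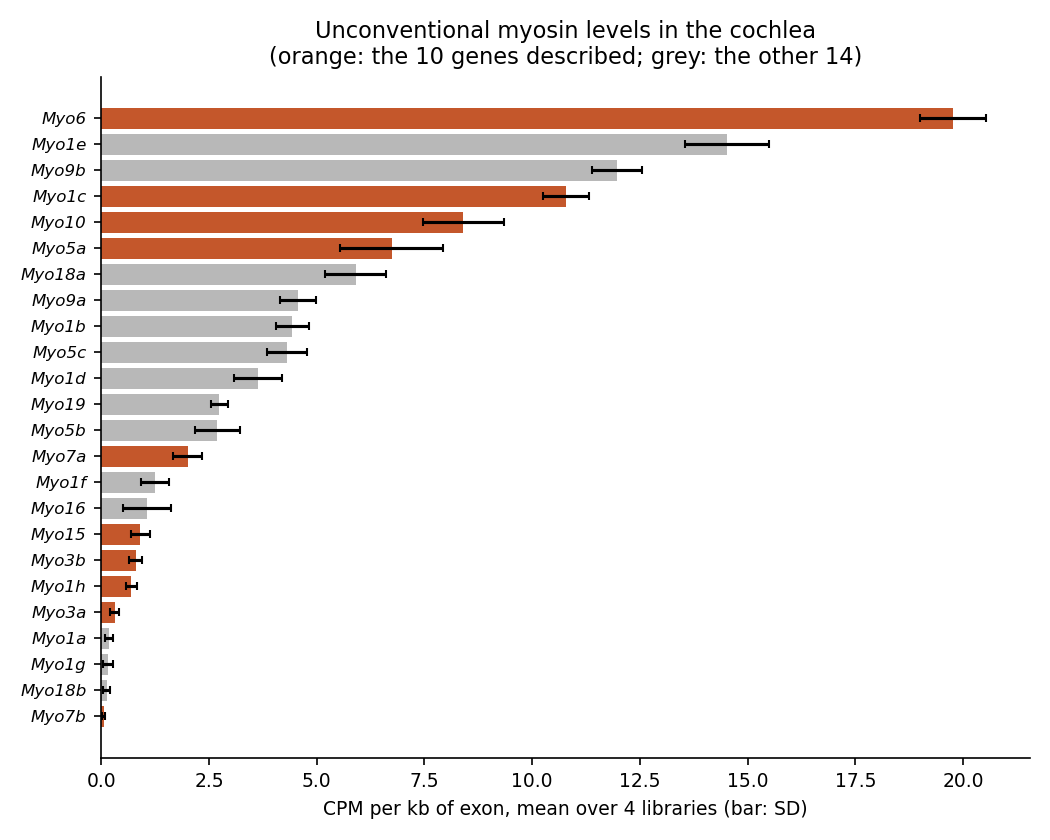
Level of the 10 described genes (orange) and of the other 14 unconventional myosin genes (grey), as the mean CPM per kilobase of exon over 4 libraries, with the SD as error bars. Myo6 has the longest bar (19.8), while Myo15, Myo3b, Myo1h and Myo3a lie between 0.313 and 0.909.

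The cello and wild-type values separated for 4 of the 9 myosins that passed the filter on low values (at least 1 CPM in at least 2 libraries). Myo15, Myo3a and Myo3b were lower in both cello libraries than in both wild-type libraries, and Myo5a was higher. These shares, 33.3% lower and 11.1% higher, lie near those of all genes tested, of which 28.7% were lower and 16.9% higher without overlap. Of the 9 tested myosins, 0 passed the adjusted threshold in limma, edgeR or DESeq2, with 1 lower and 1 higher at an unadjusted p under 0.05 in limma. The median log2 fold change (cello minus wild-type, on the log2(CPM + 0.5) scale) of the 9 myosins was -0.06, beside -0.03 over all genes tested.

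**Figure D2:**
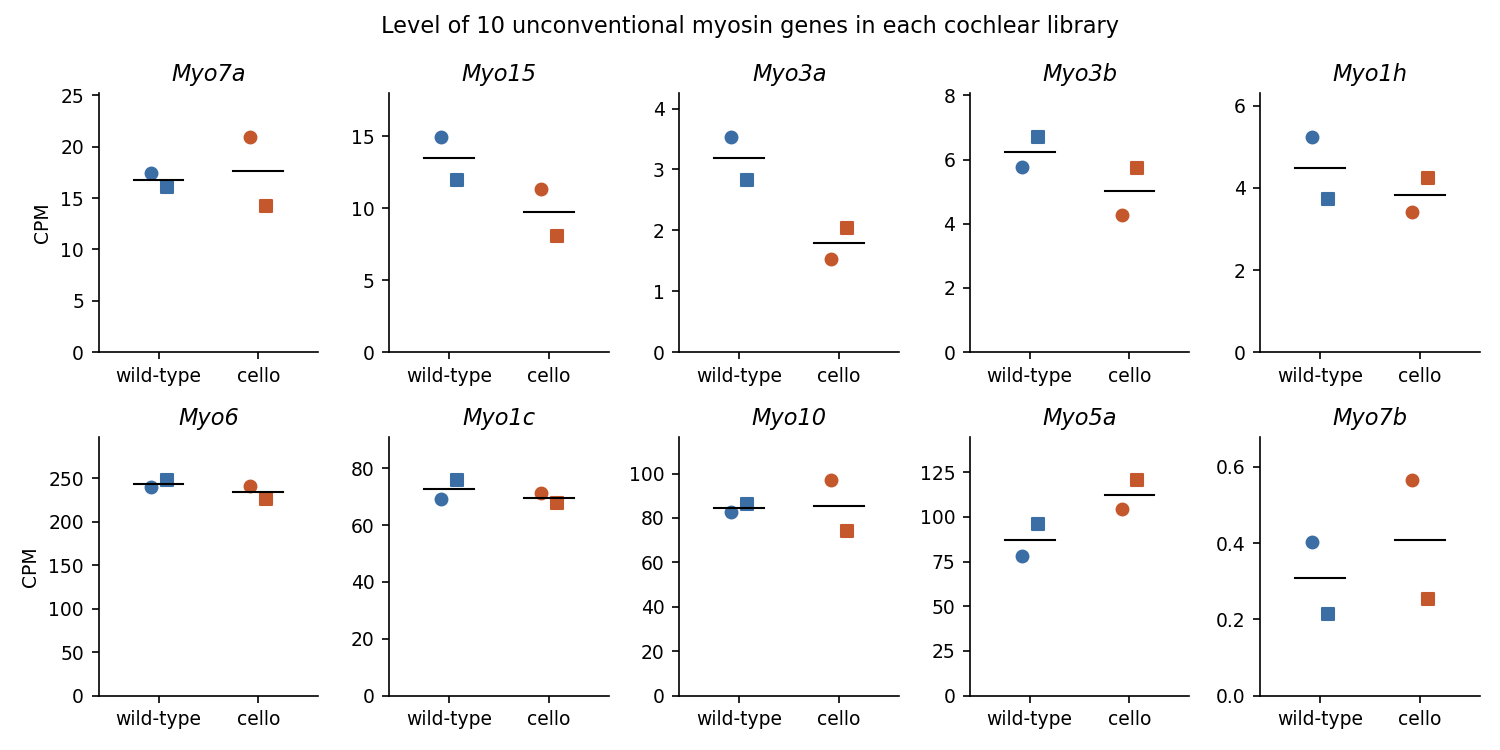
CPM of each of the 10 myosin genes, with every library as a point (circles replicate 1, squares replicate 2, blue wild-type, orange cello) and the group mean as a line. Each panel has its own axis from 0. The groups do not overlap for Myo15, Myo3a, Myo3b and Myo5a, and they overlap for the other 6 genes.

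Myo15, Myo3a and Myo3b are the myosins of the stereocilia tips. Myosin XVa carries whirlin and EPS8 to the tips and is needed for stereocilia to elongate. Myosins IIIa and IIIb, which carry a kinase domain in front of the motor, bring espin and espin-like protein there.

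Myo15 (ENSMUSG00000042678, chromosome 11, 60469339 to 60528369 of GRCm38, plus strand) measured 15.0 and 12.0 CPM in the wild-type libraries and 11.4 and 8.09 CPM in the cello libraries. The lower wild-type library and the higher cello library lay close together, and the spread within each genotype was nearly as wide as the gap between the means. The means were 13.5 ± 2.14 and 9.72 ± 2.31 CPM (SD, n = 2), a ratio of 1.39, with a log2 fold change of -0.46 (SE 0.21; limma, unadjusted p = 0.075, adjusted p = 0.487). The 95% interval, from -0.99 to 0.07, includes no difference. Leaving out cello replicate 2 brought the log2 fold change to -0.23, and leaving out cello replicate 1 brought it to -0.69.

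Myo3a (ENSMUSG00000025716, chromosome 2, 22227503 to 22618252, plus strand) had the largest difference of the 9, from 3.54 and 2.82 CPM in wild-type to 1.53 and 2.04 CPM in cello. These values rest on 176, 119, 65 and 97 reads, and both cello libraries lay below both wild-type libraries. The means were 3.18 ± 0.507 and 1.79 ± 0.362 CPM (SD, n = 2), a ratio of 1.78. The log2 fold change was -0.69 (SE 0.22), with a 95% interval from -1.26 to -0.12 (limma, unadjusted p = 0.026, adjusted p = 0.437). With the added 0.5, this scale understates the change of a gene at so low a level, and edgeR gave -0.79 (adjusted p = 0.5004) and DESeq2 -0.79 (adjusted p = 0.512). Counting error alone put cello replicate 1 between 1.18 and 1.95 CPM and cello replicate 2 between 1.66 and 2.49 CPM. For wild-type replicate 2 it gave 2.34 to 3.38 CPM, which overlaps the range of cello replicate 2. These are exact Poisson 95% intervals, which cover counting error only. The log2 fold change of Myo3a ranged from -0.85 to -0.53 when single libraries were left out.

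Myo3b (ENSMUSG00000042064, chromosome 2, 70039126 to 70429198, plus strand) measured 5.75 and 6.71 CPM in the wild-type libraries and 4.29 and 5.73 CPM in the cello libraries. Cello replicate 2 all but reached wild-type replicate 1, so the groups were separated only by a very small gap. Its log2 fold change was -0.30 (SE 0.20), with a 95% interval from -0.80 to 0.20 (limma, unadjusted p = 0.19). It was -0.11 without cello replicate 1 and -0.49 without cello replicate 2. The noncoding gene Gm13631 overlaps 70 bases of the Myo3b exons on the same strand, which is 0.994% of their length.

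The sequences upstream of the start of Myo3a, Myo15 and Myo5a are shown because these genes had the largest differences among the 9 tested, both downward and upward. They are the 250 bases before the RefSeq start on GRCm38.p6, written 5′ to 3′ on the gene's own strand (plus in all 3), at chr2:22227253-22227502, chr11:60469089-60469338 and chr9:75070956-75071205. Capitals mark GGGAA on either strand, the core of the sites that Ikaros family proteins bind, so that the reverse match reads TTCCC.
Myo3a: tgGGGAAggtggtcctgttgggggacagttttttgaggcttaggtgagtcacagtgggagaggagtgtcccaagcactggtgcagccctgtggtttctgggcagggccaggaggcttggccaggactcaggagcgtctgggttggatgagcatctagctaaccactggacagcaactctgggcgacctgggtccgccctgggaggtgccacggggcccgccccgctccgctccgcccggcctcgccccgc
Myo15: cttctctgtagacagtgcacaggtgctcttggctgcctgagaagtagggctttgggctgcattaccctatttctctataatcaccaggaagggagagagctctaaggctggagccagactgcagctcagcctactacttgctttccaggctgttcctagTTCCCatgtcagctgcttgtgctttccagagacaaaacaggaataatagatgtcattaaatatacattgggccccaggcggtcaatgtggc
Myo5a: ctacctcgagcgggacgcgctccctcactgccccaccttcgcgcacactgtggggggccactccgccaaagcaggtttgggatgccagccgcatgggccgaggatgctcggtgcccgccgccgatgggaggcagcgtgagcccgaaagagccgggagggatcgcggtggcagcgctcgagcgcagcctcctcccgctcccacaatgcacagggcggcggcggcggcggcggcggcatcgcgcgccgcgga
Myo3a held 1 match on the plus strand and Myo15 held 1 on the minus strand, while Myo5a held 0. The windows of Myo3a and Myo15 end right before the gene starts given above. That of Myo5a ends at 75071205, past the gene start given below (75071015), so part of it lies inside the gene as annotated there. Such matches are common. Of 32851 upstream windows of the same length, 56.2% held at least 1, and a window of Myo7a, whose level differed little, also held 1. The upstream windows differed in base composition, with 66.0% G and C in Myo3a, 49.6% in Myo15 and 74.0% in Myo5a. Upstream windows, with or without a motif match, were available for 9 of the 10 myosins, all but Myo7b.

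Myo7a (ENSMUSG00000030761, chromosome 7, 98051060 to 98119524, minus strand) encodes myosin VIIa, which anchors the upper end of the tip link and is the motor lost in a form of Usher syndrome. It is also a widely used marker of hair cells of both kinds. It measured 17.5 and 16.0 CPM in the wild-type libraries and 20.99 and 14.2 CPM in the cello libraries, on 674 to 891 reads. The cello libraries lay on both sides of the wild-type pair, with the highest and the lowest value of the 4. The log2 fold change of 0.04 (SE 0.20) had a 95% interval from -0.46 to 0.55 (limma, unadjusted p = 0.83), and it was -0.23 without cello replicate 1 and 0.32 without cello replicate 2.

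Relative to Myo7a, the tip myosins kept their separation in part. For every 100 reads of Myo7a there were 85.8 and 74.6 reads of Myo15 in wild-type and 54.1 and 57.0 in cello. For Myo15 the 2 cello libraries lay closer to each other in this ratio than in CPM, and the groups did not overlap. For Myo3a and Myo3b the cello libraries lay further apart in the ratio than in CPM, relative to their level. The ratio for Myo3a was 20.3 and 17.6 in wild-type and 7.30 and 14.4 in cello, again without overlap. That of Myo3b was 32.9 and 41.9 against 20.4 and 40.4, and overlapped. The ratios to Myo7a of the other 6 genes overlapped between genotypes as well. With 2 libraries per group an exact permutation test cannot reach 0.05. How many of all genes separate in their ratio to Myo7a was not counted. Myo7a itself was highest in cello replicate 1 and lowest in cello replicate 2. The 9 bone markers did the same in sum, at 1059 and 1090 CPM in wild-type and 2554 and 587 CPM in cello. So did the 7 macrophage and osteoclast markers, at 274 and 259 CPM against 433 and 244 CPM. The part of those cells in the level of Myo7a was not tested.

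**Figure D3:**
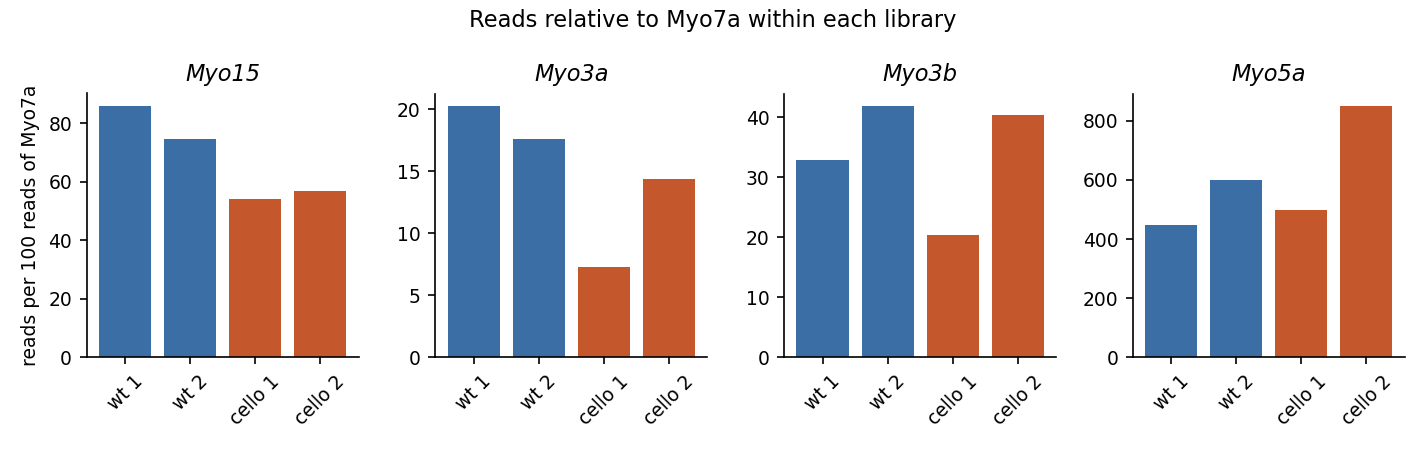
Reads of Myo15, Myo3a, Myo3b and Myo5a for every 100 reads of Myo7a in each library (blue wild-type, orange cello; wt, wild-type), each panel with its own axis from 0. Myo15 lies at 85.8 and 74.6 in the wild-type libraries against 54.1 and 57.0 in the cello libraries, whereas the bars of Myo3b and Myo5a overlap between genotypes.

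Myo6 (ENSMUSG00000033577, chromosome 9, 80165031 to 80311729, plus strand) encodes myosin VI, the motor that walks towards the minus end of actin and holds the membrane down at the base of the stereocilia. It measured 239.9 and 247.7 CPM in the wild-type libraries and 241.3 and 226.0 CPM in the cello libraries, on 10243 to 11926 reads. The groups overlapped, and the values of the 4 libraries lay within a narrow band. The log2 fold change was -0.06 (SE 0.08), with a 95% interval from -0.28 to 0.15 (limma, unadjusted p = 0.50).

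Myo1c and Myo1h encode short-tailed class I myosins that bind membranes. Myosin Ic has been studied as a motor of adaptation in the hair bundle, and it also serves glucose transporter traffic in other cells. Myo1c (ENSMUSG00000017774, chromosome 11, 75650504 to 75673910, plus strand) measured 69.3 and 75.8 CPM in the wild-type libraries and 71.2 and 67.6 CPM in the cello libraries, with overlap. Its log2 fold change of -0.06 had the same 95% interval to 2 decimals as that of Myo6, from -0.28 to 0.15. Myo1h (ENSMUSG00000066952, chromosome 5, 114289166 to 114365357, plus strand) measured 5.25 and 3.72 CPM in the wild-type libraries and 3.42 and 4.23 CPM in the cello libraries, also with overlap (log2 fold change -0.19, 95% interval from -0.77 to 0.38). The exons of Kctd10, on the opposite strand, cover 1530 bases or 25.8% of the exons of Myo1h. Kctd10 stood at 26.3 to 33.4 CPM, and because the strand setting of the counting is not given, reads of the shared part cannot be assigned to either gene.

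Myo10 (ENSMUSG00000022272, chromosome 15, 25622525 to 25813673, plus strand) encodes myosin X, which travels to the tips of filopodia. It measured 82.8 and 86.3 CPM in the wild-type libraries and 97.1 and 74.2 CPM in the cello libraries. As with Myo7a, cello replicate 1 was the highest library and cello replicate 2 the lowest. The log2 fold change was 0.01 (SE 0.14), with a 95% interval from -0.35 to 0.36.

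Myo5a (ENSMUSG00000034593, chromosome 9, 75071015 to 75223688, plus strand) encodes myosin Va, which moves vesicles in neurons and pigment granules in melanocytes. It was the only one of the 9 tested myosins with higher values in both cello libraries than in both wild-type libraries, at 78.3 and 96.0 CPM in wild-type and 104.3 and 120.6 CPM in cello. The gap between the wild-type libraries was about as wide as that between the cello libraries, and both were wider than the gap that separates the genotypes. The means were 87.1 ± 12.5 and 112.4 ± 11.5 CPM (SD, n = 2), a ratio of 1.29. The log2 fold change was 0.37 (SE 0.13), with a 95% interval from 0.03 to 0.70 (limma, unadjusted p = 0.036, adjusted p = 0.442). Without wild-type replicate 1 it was 0.22.

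Myo7b (ENSMUSG00000024388, chromosome 18, 31959234 to 32036961, minus strand) encodes myosin VIIb, the counterpart of myosin VIIa in the brush border of gut and kidney, where it holds cadherins at the tips of microvilli. It was the 1 gene of the 10 that did not pass the filter. It was detected by 20 and 9 reads in wild-type and 24 and 12 reads in cello, or 0.402, 0.214, 0.565 and 0.253 CPM, so the groups overlapped.

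**Figure D4:**
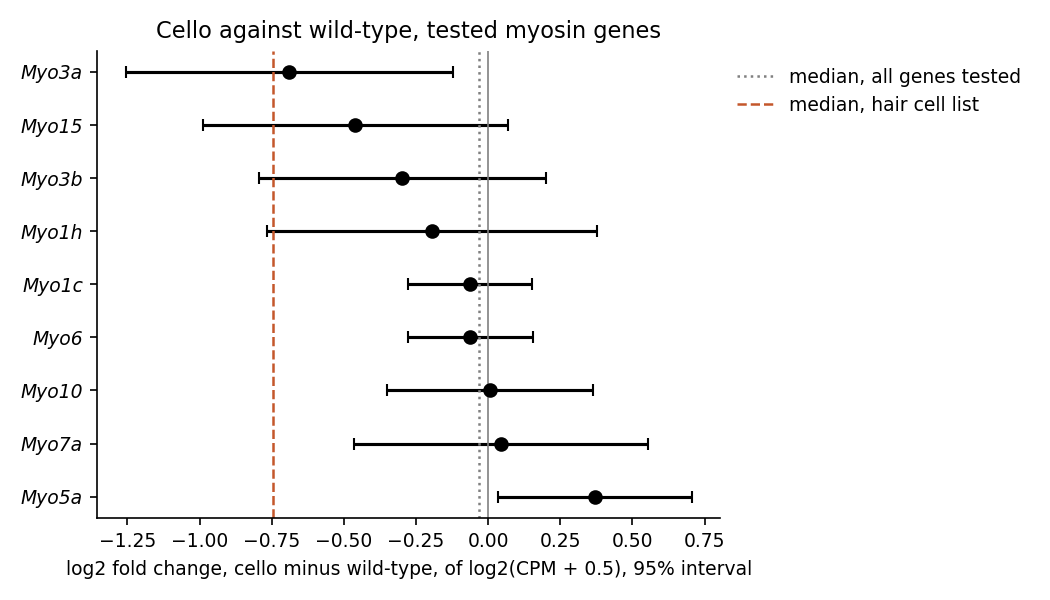
Log2 fold change, cello minus wild-type, of the 9 tested myosins with 95% intervals from limma (2 against 2 libraries). The dotted line is the median of all genes tested (-0.03) and the dashed line that of the hair cell marker list (-0.75), which holds no myosin. The intervals of Myo3a and Myo5a exclude 0 before adjustment, and the other 7 include it.

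Marker genes of hair cells other than myosins had lower values in cello, and the tip myosins and Myo7a can be set beside them. Of 13 tested hair cell markers, 10 were lower without overlap (76.9%, against 28.7% of all genes tested), and the median log2 fold change over the 13 was -0.75. The summed level of the 14 markers was 156.4 and 187.9 CPM in wild-type and 135.7 and 171.0 CPM in cello, so the groups overlapped. Pvalb, which spiral ganglion neurons also express, had higher values in cello, and without it the sums were 128.5 and 127.7 CPM against 70.9 and 81.7 CPM. General epithelial markers were lower too in their values, with 13 of 13 below 0 and sums of 1147 and 1236 CPM in wild-type against 898 and 960 CPM in cello. All 12 outer hair cell markers were below 0, 10 of them without overlap (median -0.41), while 56.6% of all genes tested were below 0. By limma and edgeR 0 markers of the hair cell, epithelial and supporting cell lists passed the adjusted threshold. DESeq2 called 2 hair cell, 4 outer hair cell, 0 inner hair cell, 1 supporting cell and 2 general epithelial markers. The 8 inner hair cell markers were split, with 4 below and 4 above 0, 3 lower and 2 higher without overlap, and a median of -0.05. The 2 higher were Slc7a14 and Calb2. Calb2 measured 57.7 and 124.2 CPM in the wild-type libraries and 183.4 and 220.0 CPM in the cello libraries. Both had the same order of libraries as the summed spiral ganglion neuron markers given below. Whether their higher values came from inner hair cells was not tested. Of 11 tested supporting cell markers, 6 were lower and 1 was higher without overlap (median -0.32). The part of these cells in the differences of Myo15, Myo3a and Myo3b was not tested.

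Markers of the auditory nerve had higher summed levels in cello, as Myo5a had. The 12 spiral ganglion neuron genes summed to 217.0 and 612 CPM in wild-type and 773 and 917 CPM in cello, and the 11 Schwann cell and myelin genes to 1132 and 2738 CPM against 3988 and 4848 CPM. Of the neuronal genes, 7 were higher and 0 lower without overlap, and of the Schwann cell and myelin genes 10 were higher and 1 lower, beside 16.9% higher among all genes tested. By limma and edgeR 0 of them passed the adjusted threshold, with 4 and 7 higher at an unadjusted p under 0.05 in limma, and DESeq2 called 1 and 3. The order of the 4 library sums was the same in both lists and in Myo5a, with wild-type replicate 1 lowest and cello replicate 2 highest, and 0 of these 23 markers were at a count of 0. The 11 melanocyte genes had a lower sum in cello, at 1263 and 1351 CPM in wild-type against 964 and 1105 CPM. Of the 10 tested, 5 were lower and 1 was higher without overlap (50% and 10%, beside 28.7% and 16.9% of all genes tested). The median log2 fold change was -0.18, with 4 lower and 0 higher at an unadjusted p under 0.05 in limma. By limma and edgeR 0 melanocyte markers passed the adjusted threshold, and DESeq2 called 2. The part of these cells in the difference of Myo5a was not tested.

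**Figure D5:**
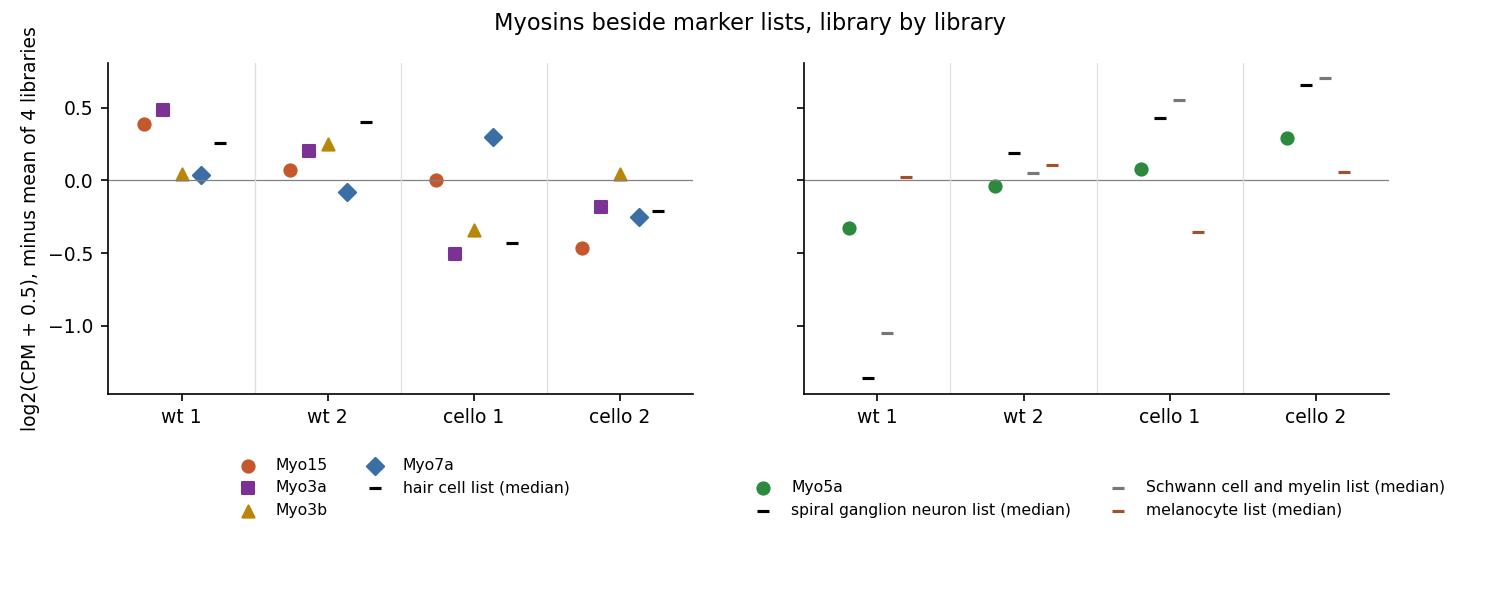
Level in each library (wt, wild-type), as log2(CPM + 0.5) minus the mean of the 4 libraries, for Myo15, Myo3a, Myo3b and Myo7a beside the median of the hair cell markers (left) and for Myo5a beside the medians of neuronal, Schwann cell and melanocyte markers (right). Myo5a runs from -0.33 in wild-type replicate 1 to 0.29 in cello replicate 2, while the neuronal median runs from -1.36 to 0.66.

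Myosins act through the proteins they carry, and lists of such partners were read from the same fit. Over the 6 partner lists 45 of 48 genes were tested, 18 were lower and 5 higher without overlap (40.0% and 11.1%, against 28.7% and 16.9% of all genes tested), and the median log2 fold change was -0.06. By limma 0 of them passed the adjusted threshold, with 11 lower and 1 higher at an unadjusted p under 0.05. DESeq2 called 2, Gnai1 and Espnl.

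The partners of the class III myosins had lower values in cello, as Myo3a did. Espnl, which encodes espin-like protein, measured 26.7 and 31.6 CPM in the wild-type libraries and 14.8 and 19.4 CPM in the cello libraries, with a log2 fold change of -0.76 (SE 0.17; limma, unadjusted p = 0.0056, adjusted p = 0.419; DESeq2, adjusted p = 0.032). Espn, the gene of the actin bundler espin, stood at 14.1 and 16.7 against 10.7 and 12.0 CPM (log2 fold change -0.43). For both genes each cello library lay below each wild-type library. Thus 2 of the 3 listed partners were lower and 0 higher without overlap (66.7% and 0%, beside 28.7% and 16.9% of all genes tested). Morn4, the gene of an adaptor of myosin IIIa, had a log2 fold change of -0.26 and overlapping groups.

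The partners of myosin XVa did not share a direction. Of 7 genes, 3 were lower and 1 was higher without overlap (42.9% and 14.3%, beside 28.7% and 16.9% of all genes tested). The median was -0.02. It was -0.18 without cello replicate 1, -0.13 without cello replicate 2 and 0.02 under TMM rescaling. Gnai1, the gene of an inhibitory G protein alpha subunit, measured 34.5 and 34.5 CPM in the wild-type libraries and 53.0 and 52.7 CPM in the cello libraries (log2 fold change 0.61, SE 0.08; limma, unadjusted p = 4.0e-04, adjusted p = 0.419; DESeq2, adjusted p = 2.3e-05). Eps8l2, a relative of the tip protein gene Eps8, had a log2 fold change of -0.37 and Gnai2 one of -0.21. Eps8 itself measured 26.6 and 27.5 CPM in the wild-type libraries and 15.8 and 23.7 CPM in the cello libraries, and Whrn, the whirlin gene, at 17.6 and 15.1 against 18.6 and 14.4 CPM. Eps8 thus lay below wild-type in both cello libraries, whereas the groups overlapped for Whrn.

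Around myosin VIIa, several genes of the tip link and its anchors had lower values in cello, whereas the groups overlapped for Myo7a. The list of 12 genes also holds Anks4b, Cdhr2 and Cdhr5, which are partners of myosin VIIb in the brush border and did not pass the filter. Of the 9 tested, 5 were lower and 1 was higher without overlap (beside 28.7% and 16.9% of all genes tested), with a median of -0.29. The higher one was Myrip, the gene of a Rab adaptor of myosin VIIa, at 7.62 and 8.40 CPM in wild-type against 8.79 and 9.80 CPM in cello. Cib2, a calcium binding subunit of the transduction complex, measured 41.5 and 42.2 CPM in the wild-type libraries and 25.8 and 31.3 CPM in the cello libraries (log2 fold change -0.55; limma, unadjusted p = 0.0048, adjusted p = 0.419). The tip link cadherin gene Pcdh15 had a log2 fold change of -0.45, and Twf2, which encodes the actin regulator twinfilin 2, one of -0.29. A direct test of Myo7a against its partners was not made.

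Among 12 tested partners of myosin VI, 5 were lower and 0 higher without overlap (41.7% and 0%, beside 28.7% and 16.9% of all genes tested). Their median was -0.04. Gipc1, the gene of a cargo adaptor, measured 67.7 and 69.0 CPM in the wild-type libraries and 50.9 and 53.5 CPM in the cello libraries (log2 fold change -0.39; limma, unadjusted p = 0.0033, adjusted p = 0.419). Ptprq, a membrane phosphatase gene of the stereocilia base, stood at 33.3 and 34.1 against 25.4 and 25.8 CPM (-0.39), and Gipc3, a deafness gene related to Gipc1, stood at 5.41 and 6.50 against 3.32 and 3.94 CPM (-0.64). The groups did not overlap in these 3 genes, and the libraries of each genotype lay close together for Gipc1 and Ptprq, while the groups overlapped for Myo6 itself.

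In the list of Myo5a partners, 2 of 7 were lower and 0 higher without overlap (28.6% and 0%, beside 28.7% and 16.9% of all genes tested). Their median was 0.08, but -0.05 without wild-type replicate 1 and -0.0073 with a filter at a mean of 5 CPM. Those with the smallest p were Rab3a (0.43), Rilpl2 (-0.15) and Rph3a (0.87). Rab3a and Rph3a encode synaptic vesicle proteins, and their groups overlapped. Of 7 partners of myosin X and Ic, 1 was lower and 3 were higher without overlap (14.3% and 42.9%, beside the same shares of all genes). Their median was 0.05, and the list was led by Vasp (-0.14), Phldb2 (0.11) and the integrin gene Itgb1 (0.11).

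Each tested myosin was set beside 177 tested genes of the partner and marker lists by the root mean square difference of its centred log2 values over the 4 libraries. The smaller this distance, the more alike are the profiles, and with 4 libraries it is a description only. For Myo15 the nearest gene was Loxhd1, a deafness gene of hair cells (0.11), followed by Slc17a8, the inner hair cell glutamate transporter gene (0.15). For Myo3a it was Chrna10, the acetylcholine receptor subunit gene of hair cells (0.12), followed by the pigment gene Tyr (0.12). For Myo3b the nearest were Actn2 (0.04) and Mlana (0.05), which are markers of muscle and of melanocytes. The genes nearest to Myo5a were Slc7a14 (0.08) and Shtn1 (0.09), both from the inner hair cell list.

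Myo7a lay nearest to genes of other cells, Cd68 of macrophages (0.06) and Kdr of blood vessels (0.06). Myo10 lay near Myh9 (0.06) and Csf1r (0.07), and Myo1h near Ush1c (0.07) and Cx3cr1 (0.09). The profiles of Myo6 and Myo1c varied little, and both lay near the glial and supporting cell gene Slc1a3 (0.01 and 0.03). The other neighbour was Kit (0.02) for Myo6 and Kcnn2 (0.03) for Myo1c. Among the myosins themselves, Myo6 and Myo1c were nearest to each other (0.03), and so were Myo7a and Myo10 (0.09), which were highest in cello replicate 1 and lowest in cello replicate 2. The nearest myosin to Myo15 was Myo7a at 0.26.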

How the data were processed

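Whole-cochlea RNA was sequenced from TruSeq libraries, per the labels' protocols. The authors deposited CPM per gene, 1 file per library, after alignment by TopHat to the GRCm38 build (per the submitters' processing notes). The sources used here do not state the read counter, its use of strand or the annotation. The deposited CPM were scaled to a total that includes 5 entries without a gene (27.2% to 30.0% of alignments), which entered no test. Among them, the entry labelled ambiguous held 3.40% to 3.53% of alignments. All values (100%, tolerance 0.001 of a read) were whole multiples of the smallest, so whole reads were recovered for the count tests.

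Symbols, positions and exon lengths (union of exons) came from GENCODE M21, which matched 36504 of 37239 identifiers. The 14721 genes that reached 1 CPM in at least 2 of 4 libraries were fitted by genotype as log2(CPM + 0.5), using limma 3.58.1 under R 4.3.3 with its trended variance. Tests were two-sided, adjusted by Benjamini-Hochberg over all these genes, with a threshold of 0.05. edgeR 4.0.16 and DESeq2 1.42.0 served as alternatives on those reads, and all 3 tools were tested on simulated data. Other alternatives changed the pseudocount, filter, scaling, trend, replicate block and libraries. Upstream sequences are from RefSeq (GRCm38.p6). Python 3.11.15 with pandas 2.3.3 made the tables and matplotlib 3.10.9 the plots.

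The 10 myosins, the lists and the tests were chosen with earlier results of these data known. All 10 myosins are named, as are up to 3 partners of smallest unadjusted p from each list, the 2 listed genes nearest to each myosin, the 3 other myosins highest per kilobase, and Ikzf2. Every other gene, the 3 upstream sequences and the motif were picked after their values were seen.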

Additional observations from a re-analysis of the deposited data

How the results depend on the processing

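With 2 libraries per genotype, no myosin was called under any of 16 alternatives (limma, edgeR and DESeq2), and the direction of Myo3a, Myo15, Myo3b, Myo6 and Myo5a held in all those run. The number of genes called over the whole table was 0 in limma but 195 in DESeq2, and it ranged from 0 to 90 when single libraries were left out. The 90 calls came without wild-type replicate 2, all higher in cello. When single libraries were left out, the log2 fold change ranged from -0.23 to 0.32 for Myo7a, from -0.19 to 0.20 for Myo10, from -0.13 to 0.00097 for Myo1c and from -0.42 to 0.027 for Myo1h, so these 4 changed sign. The sign turned for Myo7a without wild-type replicate 2 (-0.01) or cello replicate 1, for Myo1c without wild-type replicate 2, for Myo1h without wild-type replicate 1, and for Myo10 without wild-type replicate 1 (-0.02) or cello replicate 1. Lengths from the longest transcript moved the share of Myo6 to 43.2%, of Myo10 to 15.0%, of Myo7a to 3.27% and of Myo3b to 1.29%, as means of 4 libraries. With the replicate number as a block 0 genes were called. Same-numbered libraries deviated together weakly (Pearson r = 0.133 across genes, which are not independent), and the labels do not say that they share a litter. CPM over reads in genes, and shares with single libraries left out, were chosen after seeing the data. Low counts limit Myo7b and Myo3a most.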

Other observations

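Among the other 14 unconventional myosins, 12 were tested, of which 2 were lower and 5 higher in cello without overlap. These shares were 16.7% and 41.7%, beside 28.7% and 16.9% of all genes tested. In limma, edgeR or DESeq2 0 of them passed (1 at an unadjusted p under 0.05 in limma). Their median log2 fold change was 0.10. The most abundant per kilobase were Myo1e (14.5 ± 0.971), Myo9b (12.0 ± 0.580) and Myo18a (5.91 ± 0.708 CPM per kb, SD, n = 4). Myo5c, a class V myosin of epithelia, measured 44.7 and 45.9 CPM in the wild-type libraries and 40.2 and 36.1 CPM in the cello libraries, a direction opposite to that of Myo5a. Myo16, a neuronal myosin, stood at 2.51 and 8.71 against 9.52 and 13.1 CPM, with the same order of libraries as Myo5a. Myo1a, a brush border myosin below the filter, stood at 0.322 and 0.474 against 1.06 and 0.843 CPM.

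The conventional nonmuscle myosins Myh9, Myh10 and Myh14 overlapped between genotypes, with log2 fold changes of -0.10, 0.05 and -0.13. Skeletal muscle markers summed to 30.8 CPM in wild-type replicate 2 and to 3.35 to 5.39 CPM in the other libraries, and Acta1 stood at 8.64 CPM there. Myo18b, a myosin of striated muscle, measured 0.282 and 1.49 CPM in the wild-type libraries and 1.39 and 2.28 CPM in the cello libraries.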
